A study of Mus musculus with 12 samples.

Results

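The genes described here are 37 mouse genes of the hypoxia response and of glycolysis, measured in the palatal shelves of 12 embryos at embryonic day 14. They are a list of gene names, and were found in the expression table through their Ensembl identifiers. Of the 37, 36 reached at least 1 FPKM (fragments per kilobase of gene, adjusted for library size) in at least 3 libraries, among 14107 of the 19083 genes in the table that did so. Of the 36, 20 code for glucose carriers and glycolytic enzymes and are called glycolytic below, and the other 16 are further hypoxia genes. Car9, a carbonic anhydrase at the cell surface, is the member that did not pass, with 0.403 to 0.884 FPKM from 36 to 79 reads per library.

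The embryos were of the C57BL/6 strain and came from Pax9+/- females. Mutants were Pax9-/-, and controls were littermates of either other genotype. There were 3 untreated mutants, 3 untreated controls (1 Pax9+/+ and 2 Pax9+/-), 3 mutants and 3 controls (2 Pax9+/+ and 1 Pax9+/-) whose mothers received WAY-262611, a small-molecule Wnt agonist, every day into the tail vein from E10.5 to E14. Each library was made from 1 embryo's dissected tissue, so p-values describe the spread between embryos, and in such bulk tissue fewer cells of a type cannot be told apart from less RNA per cell. The series asks how loss of Pax9 and a Wnt agonist alter the forming palate.

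Sample titles join CTR (untreated) or WAY with a number that mutants and controls share, and these title numbers are written here as CTR-389, WAY-318, CTR-393 and WAY-422. CTR-389 and WAY-318 hold 1 mutant and 1 control each, and their columns share a prefix, called the 4-library prefix. CTR-393 and WAY-422 hold 2 mutants and 2 controls each and share another, the 8-library prefix. The controls were Pax9+/+ in CTR-389 and WAY-318, Pax9+/- in CTR-393, and 1 of each in WAY-422. The labels do not say what the number or the prefix stands for. Recovered depth was 36.8 to 49.8 M reads per library. Pax9, the targeted paired-domain transcription factor, ran from 4.75 to 7.30 FPKM in the mutants and from 20.3 to 37.5 FPKM in the controls with no overlap between the genotypes. All 8 markers of palatal mesenchyme were detected in the table, with a summed level of 543 to 811 FPKM per library.

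Cells sense oxygen through the prolyl hydroxylases of the Egln family, which mark the alpha subunits of hypoxia-inducible factor (HIF) for destruction while oxygen is at hand. When oxygen falls, the alpha subunits persist, pair with the Arnt subunit and bind a short DNA core near genes for glucose uptake, glycolysis, vessel growth and collagen hydroxylation. Many of these genes also answer to growth signals and differ between cell types without any change in oxygen. The palatal shelves are folds of neural crest mesenchyme under oral epithelium, with bone, cartilage, muscle and vessels forming nearby.

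The 250 bases before each RefSeq start site were searched for ACGTG and GCGTG and, for the other strand, CACGT and CACGC, with overlapping matches counted separately, so that CACGTG counts as 2. Of the 37 genes, 35 had an entry, and 32 of them (91.4%) held a core before at least 1 start site. The same was true of 61.6% of the 10257 genes past the FPKM filter with an entry, and of 41.5% of all 27025 genes with one. Counted per start site, a core stood before 79.6% of the members' 54 start sites and before 55.5% of those of genes past the filter, whose median GC content was 60.0%, against 62.2% for the members. Eno2, Gpi1 and Tpi1 held none in this window, and Ndrg1 and Slc2a3 were without an entry. The 6 windows below belong to the members called between genotypes with the title number as a block in the tests that follow. None of these was called over all 12 libraries without a block or a prefix term. They are printed 5′ to 3′ along the gene's strand, ending at the base before the start, with the cores in capitals (RefSeq, build GRCm38.p6). The order is Pdk1 (chr2:71872974-71873223, plus strand), P4ha1 (chr10:59323046-59323295, plus), P4ha2 (chr11:54100674-54100923, plus), Egln3 (chr12:54203875-54204124, minus), Slc2a1 (chr4:119108495-119108744, plus) and Bnip3 (chr7:138909507-138909756, minus).
Pdk1: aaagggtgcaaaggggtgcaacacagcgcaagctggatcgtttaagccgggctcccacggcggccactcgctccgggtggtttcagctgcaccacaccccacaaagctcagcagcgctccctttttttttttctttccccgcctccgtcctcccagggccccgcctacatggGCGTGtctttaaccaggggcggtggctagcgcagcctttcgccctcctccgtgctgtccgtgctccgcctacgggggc
P4ha1: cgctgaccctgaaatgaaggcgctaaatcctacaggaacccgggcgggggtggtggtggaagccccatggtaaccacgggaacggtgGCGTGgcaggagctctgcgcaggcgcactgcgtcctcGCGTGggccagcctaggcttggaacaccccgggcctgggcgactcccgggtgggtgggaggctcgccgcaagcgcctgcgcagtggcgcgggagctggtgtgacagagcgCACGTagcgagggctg
P4ha2: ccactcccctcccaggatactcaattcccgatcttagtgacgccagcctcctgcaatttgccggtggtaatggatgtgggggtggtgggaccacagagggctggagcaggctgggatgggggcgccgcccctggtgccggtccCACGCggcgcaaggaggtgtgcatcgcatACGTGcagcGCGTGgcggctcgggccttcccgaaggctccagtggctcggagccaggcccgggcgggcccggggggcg
Egln3: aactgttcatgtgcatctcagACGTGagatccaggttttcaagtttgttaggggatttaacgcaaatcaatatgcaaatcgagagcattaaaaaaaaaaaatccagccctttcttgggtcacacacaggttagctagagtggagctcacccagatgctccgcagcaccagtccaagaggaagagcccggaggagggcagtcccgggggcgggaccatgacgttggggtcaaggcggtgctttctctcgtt
Slc2a1: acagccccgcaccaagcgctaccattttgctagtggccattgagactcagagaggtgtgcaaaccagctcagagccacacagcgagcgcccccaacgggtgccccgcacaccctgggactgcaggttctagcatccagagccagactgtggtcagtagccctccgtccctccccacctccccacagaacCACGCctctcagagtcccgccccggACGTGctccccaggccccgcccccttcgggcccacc
Bnip3: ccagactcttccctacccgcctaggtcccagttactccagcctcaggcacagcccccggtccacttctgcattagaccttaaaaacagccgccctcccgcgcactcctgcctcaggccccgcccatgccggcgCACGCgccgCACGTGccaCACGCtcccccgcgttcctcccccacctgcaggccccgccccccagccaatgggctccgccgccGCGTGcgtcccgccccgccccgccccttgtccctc
Bnip3 held 5 matches, of which a pair overlap in one CACGTG, P4ha1 and P4ha2 held 3 each, Slc2a1 held 2, and Pdk1 and Egln3 held 1 each. A second annotated start of Pdk1 had none. A stretch of bases just after the Egln3 start was not found in the GENCODE transcripts of that gene. A match describes letters, not a site in use.

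Levels per gene length were highest for 4 glycolytic enzymes. The median over 12 libraries was 262 FPKM for Pkm (pyruvate kinase), 209 FPKM for Ldha (lactate dehydrogenase), 191 FPKM for Tpi1 (triose phosphate isomerase) and 135 FPKM for Aldoa (aldolase). Outside glycolysis, Ddit4, an inhibitor of growth signalling, led with 71.8 FPKM. The lowest medians were those of Adm, the vascular peptide adrenomedullin, at 1.42 FPKM from 16 to 171 reads per library, and of Gapdh at 2.04 FPKM. The Gapdh value is not a measure of that enzyme's transcript alone. Stretches of at least 50 bases that match other annotated genes at 95% identity or more covered 88.0% of its transcript. Of the genes that match over at least 200 bases, 75 were pseudogenes and 43 had values of their own in the table. Stretches of 50 bases or more also covered 94.2% of the transcript of Bnip3, 85.6% of Eno1, 68.8% of Pgk1, 65.5% of Pkm, 55.4% of Gpi1 and 55.0% of Ldha, so levels of these genes are uncertain to the extent that reads were shared out or dropped. Exons of Pfkp and Ankrd37 share 748 and 349 bases with the opposite-strand genes Pitrm1 and Lrp2bp. The strand setting is not known, so the levels of Pfkp and Ankrd37 are uncertain too.

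The members' levels differed more between title numbers than between genotypes. The mean log2(FPKM + 0.5) of the 36 genes was 3.78 in the mutant and 3.66 in the control of CTR-389, and 3.87 and 3.78 in those of WAY-318. It was 4.04 and 4.14 in the mutants and 4.07 and 4.05 in the controls of CTR-393. In WAY-422 it was 4.32 and 4.48 in the mutants and 4.23 and 4.33 in the controls. The libraries of the 4-library prefix, of CTR-393 and of WAY-422 thus lay in 3 separate ranges in rising order, while CTR-389 and WAY-318 overlapped. The mean over all 14107 genes stayed between 3.21 and 3.29 in the same libraries.

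**Figure D1:**
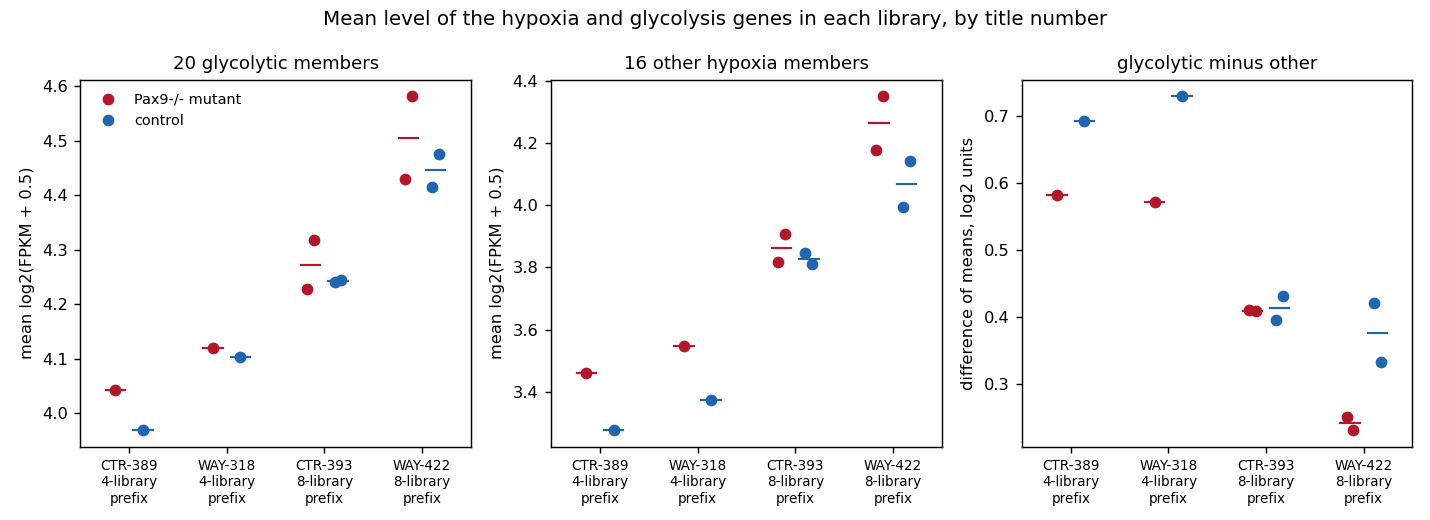
Mean log2(FPKM + 0.5) of the 20 glycolytic members (left), of the 16 other members (middle) and their difference (right) in each of 12 libraries, by title number with its treatment and column prefix. Points are libraries and short lines are means. The means climb from CTR-389 to WAY-422, and the difference shrinks from 0.729 in a control of WAY-318 to 0.232 in a mutant of WAY-422.

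The other hypoxia members spread more between libraries than the glycolytic ones. The glycolytic mean ran from 3.97 to 4.58 and the mean of the others from 3.28 to 4.35. The gap between them was 0.64 ± 0.08 (SD, n = 4) on the log2 scale in the 4-library prefix and 0.36 ± 0.08 (SD, n = 8) in the 8-library prefix. A single library, the third WAY mutant, held the highest level of 23 of the 36 members, against 3.6% of all genes. Of the members, 33 peaked in a library of WAY-422 (44.5% of all genes) and 31 had their lowest level in a library of CTR-389 (22.4% of all genes). Among single genes, the highest library exceeded the lowest 10.4-fold for Adm, at its low read counts, 4.50-fold for Ndrg1, a differentiation and stress gene, and 3.79-fold for Slc16a3, which exports lactate. For Egln1, the main oxygen-sensing hydroxylase, the ratio was 1.17.

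Mutants and controls were compared among untreated embryos, among treated ones and over both treatments. Without a block, no member passed in any of these (limma, Benjamini-Hochberg adjusted p over all genes). At an unadjusted p under 0.05 there were 0 members among untreated, 0 among treated embryos and 2 over both. Shares of all genes at that unadjusted threshold are given below only for WAY over both genotypes. The other unadjusted counts therefore have no background beside them. Of all genes, 0.0922% passed among untreated and 0.447% among treated embryos, and 0.851% over both. The members with the smallest p were Egln3, Gpi1 and Pfkfb4 without treatment, Pdk1, Egln3 and Hk2 with it, and Egln3, Pdk1 and Pfkm over both. Because mutants and controls of one title number deviated from their group means together, the same comparisons are given with the title number as a block. Within a treatment each title number has its own prefix, so this shared deviation cannot be told apart from a difference between prefixes.

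With the title number as a block, Pdk1, P4ha1, P4ha2 and Egln3 rose in the mutants over both treatments, and none of the 36 members fell. Of all genes, 2.91% were called higher in that fit. Pdk1 codes for the kinase that keeps pyruvate out of the mitochondrial acid cycle. Its level in mutant against control was 13.0 against 10.3 FPKM in CTR-389 and 12.5 against 10.7 FPKM in WAY-318. It was 15.3 and 15.4 against 13.5 and 14.4 FPKM in CTR-393, and 16.9 and 16.1 against 12.9 and 13.5 FPKM in WAY-422. Within each title number every mutant lay above every control, while over all 12 libraries the genotypes overlapped. The difference was 0.24 ± 0.04 (log2(FPKM + 0.5), SE, n = 6 per genotype, limma adjusted p = 0.0073, against 0.303 without the block).

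P4ha1 and P4ha2 code for the catalytic subunits of the procollagen prolyl hydroxylases, which stabilise the collagen helix. P4ha1 measured 32.0 against 27.9 FPKM in CTR-389, 32.5 against 28.8 FPKM in WAY-318, 48.7 and 46.1 against 43.8 and 39.7 FPKM in CTR-393, and 59.8 and 56.0 against 47.3 and 51.5 FPKM in WAY-422, mutants first. P4ha2 measured 12.7 against 12.3 FPKM, 13.3 against 11.9 FPKM, 21.9 and 21.2 against 18.2 and 17.6 FPKM, and 24.6 and 25.1 against 19.7 and 19.7 FPKM in the same order. For both genes all mutants of a title number exceeded its controls, and both genes were far lower in the 4-library prefix than in the 8-library prefix. The difference was 0.20 ± 0.04 for P4ha1 (limma adjusted p = 0.0158 with the block, 0.693 without) and 0.23 ± 0.04 for P4ha2 (limma adjusted p = 0.0107 with the block, 0.656 without).

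Egln3, a HIF prolyl hydroxylase that is itself induced by HIF, measured 8.66 against 4.88 FPKM in CTR-389 and 8.56 against 6.59 FPKM in WAY-318, mutants first. It measured 7.73 and 8.598 against 6.73 and 7.19 FPKM in CTR-393, and 11.6 and 16.3 against 8.64 and 10.97 FPKM in WAY-422. The mutants lay above the controls of their own title number throughout, and on the log2 scale the gap ran from 0.22 in CTR-393 to 0.77 in CTR-389. The difference was 0.42 ± 0.10 (limma adjusted p = 0.0425 with the block, 0.251 without). With each library left out in turn under the block, Pdk1 and P4ha2 passed in 12 of 12 fits and P4ha1 in 9, missing without untreated mutant 1 (adjusted p = 0.0508), without untreated control 1 (0.0509) and without untreated mutant 2 (0.051). Egln3 passed in 2 of 12, without WAY mutant 2 and without WAY control 3, and its limma adjusted p ran from 0.0279 to 0.122.

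**Figure D2:**
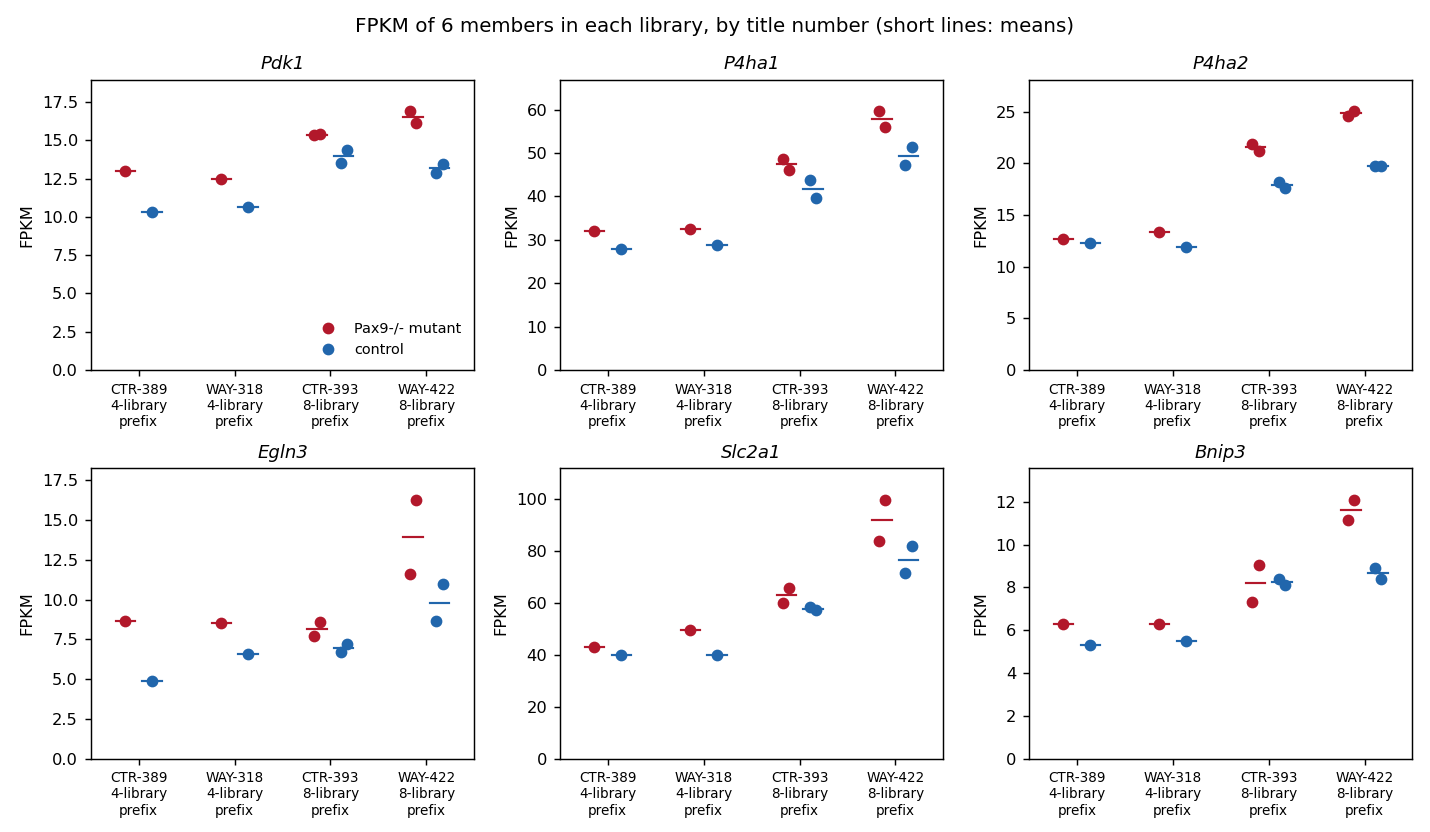
FPKM of Pdk1, P4ha1, P4ha2, Egln3, Slc2a1 and Bnip3 in each of 12 libraries by title number, with mutants in red and controls in blue. Short lines are means of a genotype within a title number, and each axis starts at 0. In every panel except Bnip3 the mutants of a title number lie above its controls.

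In the treated embryos alone, 5 members were higher in the mutants with the block, against 4.1% of all genes called higher. These were Pdk1 (0.28 ± 0.05, limma adjusted p = 0.0225), P4ha2 (0.27 ± 0.06, 0.0272), P4ha1 (0.21 ± 0.05, 0.0429), Bnip3 (0.33 ± 0.09, 0.0479) and Slc2a1 (0.27 ± 0.07, 0.0484), with SE and adjusted p for each. Slc2a1, the glucose carrier that supplies most embryonic tissues, measured 49.5 against 40.0 FPKM in WAY-318, and 83.7 and 99.9 against 71.5 and 82.0 FPKM in WAY-422. Bnip3, a receptor for the removal of mitochondria, measured 6.31 against 5.49 FPKM in WAY-318, and 11.1 and 12.1 against 8.91 and 8.41 FPKM in WAY-422. For both genes the treated mutants stood above the treated controls of the same title number. In the untreated embryos Slc2a1 measured 43.2 against 39.8 FPKM in CTR-389, and 60.1 and 65.7 against 58.3 and 57.1 FPKM in CTR-393, again with the mutants above. Untreated Bnip3 measured 6.28 against 5.32 FPKM in CTR-389, but 7.31 and 9.06 against 8.41 and 8.10 FPKM in CTR-393, where the genotypes overlapped. Over both treatments Slc2a1 reached 0.20 ± 0.05 (limma adjusted p = 0.0502) and Bnip3 0.20 ± 0.06 (0.0833) with the block.

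The calls in treated embryos depended on single libraries, more so for Slc2a1, P4ha1 and Bnip3 than for Pdk1 and P4ha2. With 1 library left out under the block, Slc2a1 and P4ha1 passed only without WAY control 3 and Bnip3 only without untreated mutant 2, 1 of 12 fits each. Pdk1 passed in 8 of 12 fits and P4ha2 in 9. Neither passed without WAY mutant 2 (limma adjusted p = 0.102 and 0.109) or without WAY mutant 3 (0.0557 and 0.0775). Pdk1 also missed without WAY mutant 1 (0.0546) and without WAY control 1 (0.0542), and P4ha2 without WAY control 2 (0.0544). Without WAY control 3 the number of members called rose from 5 to 8, with Hk2, Pfkl, Pfkfb3 and Slc16a3 added and Bnip3 lost.

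In the untreated embryos alone no member passed with the block, and 0.227% of all genes were called higher. At an unadjusted p under 0.05 there were 5 members, with no share of all genes to set beside them. The smallest limma adjusted p was 0.203, for Pdk1 with a difference of 0.20 ± 0.05.

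The same comparisons were also made with the prefix as a term and in the 8-library prefix alone. Each title number lies in a single prefix, so the block had already taken out differences between prefixes. These fits use the same libraries and are no independent check of it. With the prefix as a term in place of the block, Pdk1 and P4ha2 rose in treated mutants. These 2 of 36 members are a share near the 5.02% of all genes called higher. Over both treatments Pdk1, P4ha1, P4ha2 and Egln3 rose (4 of 36 members, against 3.27% of all genes called higher). In the 8-library prefix alone, P4ha2 rose in treated mutants (0.33 ± 0.05, limma adjusted p = 0.0311, with 0.73% of all genes called higher). Over both treatments there, Pdk1 (0.23 ± 0.04, limma adjusted p = 0.042) and P4ha2 (0.29 ± 0.04, 0.0103) rose, with 1.2% of all genes called higher. The 4-library prefix has 1 library of each kind and gives no test of its own.

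The difference in treated minus the difference in untreated embryos, tested as an interaction of genotype and treatment, was called for 0 members and 0% of all genes, with and without the block (0 and 1 members at an unadjusted p under 0.05, without and with it). The larger number of calls in treated embryos is therefore not shown to be a difference between treatments.

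A further 4 genes were among the smallest p of a genotype comparison and did not pass with or without the block. Hk2, the inducible hexokinase, had 10.04, 11.1 and 15.7 FPKM as lowest, median and highest in the 6 mutants, and 9.17, 10.8 and 14.3 FPKM in the 6 controls. Gpi1, glucose phosphate isomerase, had 43.4, 47.2 and 53.8 FPKM in mutants and 40.8, 46.4 and 53.7 FPKM in controls. Pfkfb4, which sets a regulator of phosphofructokinase, had 4.92, 5.25 and 5.41 FPKM in mutants and 4.63, 5.00 and 5.56 FPKM in controls. In all 3 the ranges of the genotypes overlapped. Pfkm, a phosphofructokinase subunit typical of muscle, had 37.01, 39.4 and 42.4 FPKM in mutants and 35.2, 37.5 and 41.2 FPKM in controls. Its mutants lay above the controls in every title number, by 0.08 ± 0.03 with the block (limma adjusted p = 0.0967). The skeletal muscle markers summed to 571 against 159 FPKM in CTR-389 and 567 against 507 FPKM in WAY-318, mutants first. They summed to 140 and 255 against 192 and 200.5 FPKM in CTR-393, where the genotypes overlapped. In WAY-422 they summed to 226 and 308 against 266 and 196 FPKM, again with overlap. The part of muscle in the Pfkm values was not tested.

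Over the whole list, the median difference between mutants and controls was above 0 in each title number and small. The median mutant minus control difference was 0.11 in CTR-389 (28 of 36 above 0), 0.05 in WAY-318 (23), 0.03 in CTR-393 (22) and 0.11 in WAY-422 (27), against -0.02, -0.03, -0.02 and -0.04 over all genes. A count of 12 members (33.3%) were above 0 in all 4 title numbers, as were 10% of all genes. In 6 members (16.7%) every mutant exceeded every control in each title number, as in 3.76% of all genes, and these were Slc2a1, Pfkm, Pdk1, Egln3, P4ha1 and P4ha2. No member showed the reverse, which held for 8.73% of all genes. Pfkp, another phosphofructokinase subunit, and Pkm were the members below 0 in all 4, by 0.03 to 0.25 and by 0.01 to 0.10 in size. They make up 5.6% of the members, against 21.9% of all genes that were above 0 in no title number.

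By class, the median mutant minus control difference of the 20 glycolytic members and of the 16 others was 0.09 and 0.21 in CTR-389, -0.03 and 0.16 in WAY-318, 0.07 and 0.01 in CTR-393, and 0.05 and 0.20 in WAY-422. The others thus had the higher median in 3 title numbers and the lower one in CTR-393, and the difference between the classes was not tested. Pooled over title numbers, the glycolytic mean was 4.29 ± 0.20 in mutants and 4.24 ± 0.19 in controls (SD, n = 6 each), and the mean of the others was 3.88 ± 0.35 and 3.74 ± 0.34. The gap between the classes was 0.582 in the mutant and 0.692 in the control of CTR-389, 0.572 and 0.729 in WAY-318, and 0.252 and 0.232 against 0.421 and 0.333 in WAY-422. It was smaller in the mutants of those 3 title numbers, whereas in CTR-393 the mutants (0.411 and 0.409) lay between the controls (0.396 and 0.432).

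**Figure D3:**
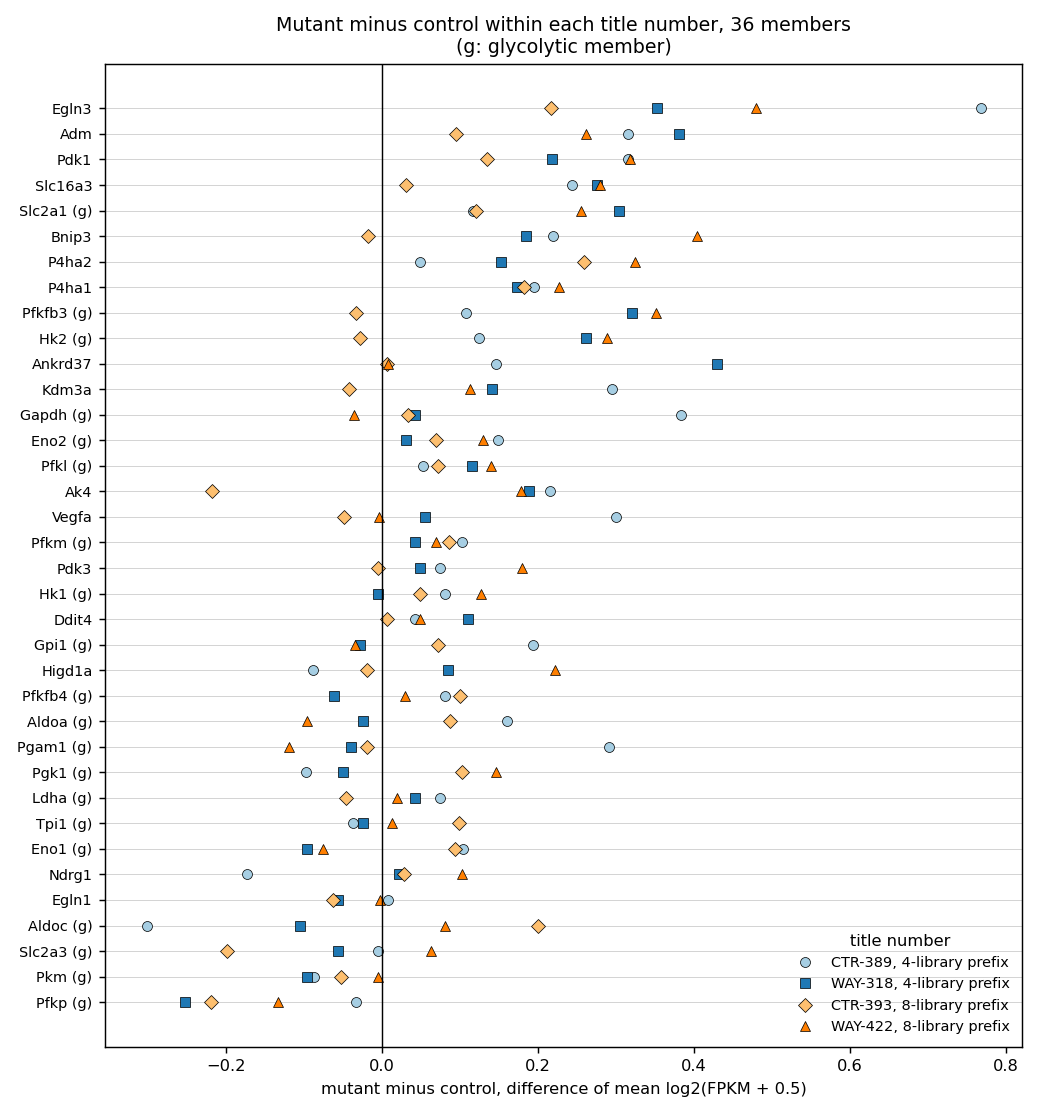
Mutant minus control difference of mean log2(FPKM + 0.5) within each title number for the 36 members, ordered by the mean of the 4 values, with 1 marker per title number and g after glycolytic members. Egln3 is at the top with 0.22 to 0.77, and Pfkp at the bottom lies below 0 in all 4 title numbers.

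Cell type markers moved with genotype as well. With the block and over both treatments, 3 of 6 markers of oral epithelium (Krt5, Epcam and Cdh1) fell in mutants, against 5.34% of all genes called lower, and the median of the list was -0.29. Their summed level was 246 to 661 FPKM in untreated and 297 to 696 FPKM in treated mutants, against 383 to 726 FPKM and 325 to 905 FPKM in the controls. The cartilage factor Sox9 rose among 5 cartilage markers, and of 8 mesenchymal markers Osr2 rose and Msx1 fell. Of all genes 2.91% were called higher in that fit. None of the 5 bone markers was called, at a median of 0.14, but their summed level was 1047 to 1297 FPKM in the 4 mutants of the 8-library prefix against 711 to 944.5 FPKM in its 4 controls, without overlap. In the 4-library prefix it was 72.3 against 101 FPKM in CTR-389 and 118 against 119 FPKM in WAY-318, mutants first. The part of these cell types in the genotype differences of the members was not tested.

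Other genes of the pathway gave few calls with the block over both treatments, and none without it. Counts of genes that rose stand beside 2.91% of all genes called higher, and counts of genes that fell beside the same 5.34% called lower. Of 10 genes of the HIF system 0 rose and 1 fell, Cited2 (-0.14 ± 0.04, limma adjusted p = 0.0374), a coactivator-binding antagonist of HIF. Of 26 further hypoxia targets 1 rose, Lox, which cross-links collagen (0.22 ± 0.05, 0.0376), and 1 fell, the carbonic anhydrase Car12 (-0.32 ± 0.07, 0.0263). Of 18 further genes of glycolysis and pyruvate handling 2 fell, Ldhb, the lactate dehydrogenase subunit typical of oxidative tissue (-0.20 ± 0.04, 0.0262), and Bpgm of red cells (-0.18 ± 0.04, 0.027). Of 21 genes of oxidative metabolism 3 fell, the citrate synthase gene Cs (-0.12 ± 0.03, 0.0405) and the cytochrome oxidase subunits Cox5a (-0.13 ± 0.03, 0.0198) and Cox6c (-0.24 ± 0.06, 0.0372), while 3 of 21 lay above 0 and the median was -0.08. The error given with each of these is the SE, and the value after it is the limma adjusted p. In the treated embryos alone, 4.1% of all genes were called higher and 5.96% lower with the block. There Lox (0.29 ± 0.08, limma adjusted p = 0.0427) and Stc1 (0.32 ± 0.08, 0.0401) rose and Mxi1 fell among the 26 further hypoxia targets. Bpgm, Cs, Cox5a and Cox6c fell as well.

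Treated and untreated embryos were compared within each prefix, where treatment and title number cannot be told apart. No member passed for WAY against untreated in mutants, in controls or over both genotypes without a block (limma, 0% of all genes called in each). At an unadjusted p under 0.05 there were 2, 4 and 5 members, against 10% of all genes in the last of these. The values nevertheless lay on one side. WAY-treated minus untreated had a median of 0.26 in the mutants of the 8-library prefix (35 of 36 above 0) and 0.16 in its controls (33), and of 0.06 in the mutants of the 4-library prefix (31) and 0.10 in its controls (33). The medians over all genes ran from 0.01 to 0.04. In 26 of the 36 members all 4 values were above 0, as in 14.3% of all genes.

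The 3 members with the largest single values were Ankrd37, Egln3 and Slc16a3, all in the 8-library prefix. Ankrd37, an ankyrin-repeat HIF target, was higher by 0.74 in mutants and by 0.74 in controls there, and by 0.14 and -0.15 in the 4-library prefix. Egln3 was higher by 0.72 and 0.46 in the 8-library prefix, and by -0.02 and 0.40 in the 4-library prefix. Slc16a3 was higher by 0.66 and 0.41 in the 8-library prefix and by 0.24 and 0.21 in the 4-library prefix, the same direction in all 4. Ddit4 (0.55 and 0.51) and the vessel growth factor Vegfa (0.53 and 0.49) in the 8-library prefix stood against 0.14 and 0.07, and -0.06 and 0.19, in the 4-library prefix. Pdk1 and its relative Pdk3 did not share the pattern, with -0.08 to 0.10 and -0.23 to 0.05 over the 4 contrasts.

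**Figure D4:**
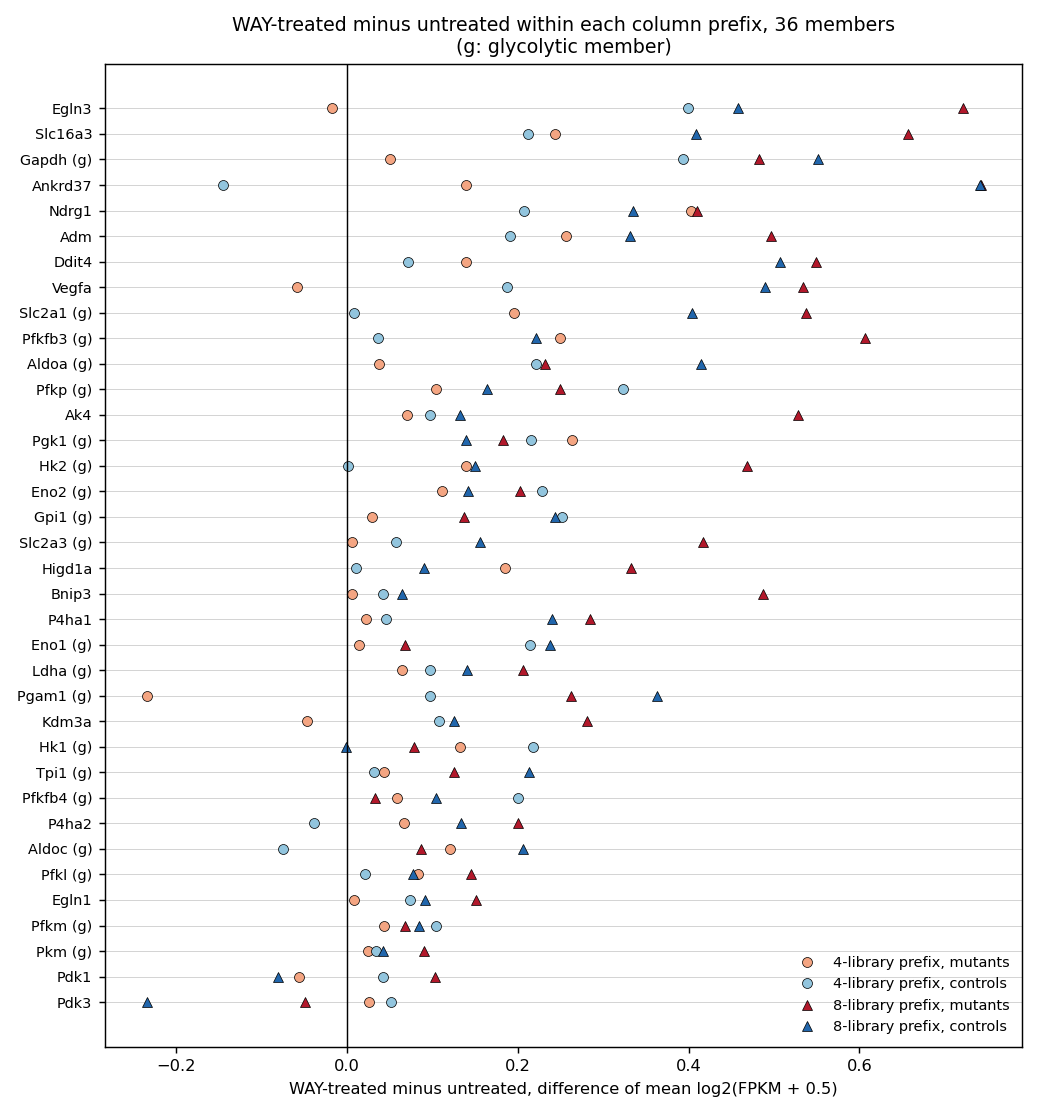
WAY-treated minus untreated difference of mean log2(FPKM + 0.5) for the 36 members, in mutants and controls of each column prefix, ordered by the mean of the 4 values, with g after glycolytic members. The 4-library prefix compares WAY-318 with CTR-389, 1 library a side, and the 8-library prefix compares WAY-422 with CTR-393, 2 libraries a side. In the mutants of the 8-library prefix, 35 of 36 values lie above 0.

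Fitted with the prefix as a term, 30 of 36 members had an unadjusted p under 0.05 for WAY over both genotypes, against 20.5% of all genes, and 0 passed the adjusted threshold (smallest limma adjusted p = 0.0709, Slc16a3). In controls, Aldoa alone was called higher, by 0.35 ± 0.08 (limma adjusted p = 0.0461, with 0.836% of all genes called higher). It is named because it was the single call, after its values were seen. Aldoa measured 134 FPKM in the treated and 115 FPKM in the untreated control of the 4-library prefix, and 183 and 171 against 135 and 130 FPKM in the 8-library prefix. That fit counts embryos of one title number as independent. With the title number as a random effect no member passed, and 0 had an unadjusted p under 0.05 over both genotypes. The random-effect fit held no prefix term, so it differs from the fit above in more than the title number. With 4 title numbers, 2 per treatment, a step between title numbers and an effect of WAY-262611 on these genes cannot be told apart.

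The libraries of the 8-library prefix were then compared with those of the 4-library prefix. Of 36 members 27 were higher and 1 was lower in the 8-library prefix (limma, group means plus prefix), against 20.8% of all genes higher and 23% lower. The median difference was 0.32 for the members and -0.02 for all genes. The 13 glycolytic and 14 other genes that were higher had class medians of 0.27 over all 20 and 0.56 over all 16. In 17 members (47.2%) every library of the 8-library prefix exceeded every library of the 4-library prefix, as in 11.7% of all genes. Each prefix holds 2 title numbers, so libraries of a prefix are fewer in independent origin than their number if the title number marks the litter.

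Among glucose carriers and enzymes, Slc2a1 ran from 39.8 to 49.5 FPKM in the 4-library prefix and from 57.1 to 99.9 FPKM in the 8-library prefix, a difference of 0.72 ± 0.08 (SE, limma adjusted p = 4.74e-05). Ldha, which turns pyruvate into lactate, ran from 137 to 151 FPKM and from 193 to 236 FPKM, a difference of 0.60 ± 0.04 (1.73e-06). The carrier and the last enzyme of anaerobic glycolysis thus showed no overlap between prefixes. Tpi1 ran from 163 to 171 and from 187 to 229 FPKM, Pfkp from 1.02 to 1.45 and from 1.85 to 3.13 FPKM, and the aldolase Aldoc from 2.60 to 3.32 and from 4.62 to 6.41 FPKM, also without overlap. Pfkm was the member that was lower, at 38.3 to 42.4 FPKM in the 4-library prefix and 35.2 to 40.4 FPKM in the 8-library prefix (-0.12 ± 0.03, limma adjusted p = 0.00385). Hk1, the constitutive hexokinase, Gpi1, Pfkfb4, Gapdh, Pgam1 and Pkm did not pass, with differences from -0.07 to 0.20.

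Among the other members, Ndrg1 had the largest difference, 3.48 to 4.76 FPKM in the 4-library prefix and 9.99 to 15.6 FPKM in the 8-library prefix, or 1.43 ± 0.07 (SE, limma adjusted p = 5.99e-07). Slc16a3 ran from 5.16 to 7.43 and from 10.6 to 19.6 FPKM (1.11 ± 0.08, 2.79e-06). Adm ran from 0.299 to 0.687 and from 1.35 to 3.11 FPKM (1.22 ± 0.12, 3.25e-05), a log2 difference that the added 0.5 FPKM makes smaller than the ratio of its levels. All 3 genes lay wholly apart between prefixes. P4ha2 was higher by 0.71 ± 0.05 (2.16e-06) and P4ha1 by 0.68 ± 0.05 (5.11e-06), Higd1a, a mitochondrial protein induced by hypoxia, by 0.53 ± 0.04 (5.15e-06), and Pdk1 by 0.33 ± 0.04 (7.72e-05). Vegfa (0.20 ± 0.09, limma adjusted p = 0.0933) and Kdm3a, a histone demethylase (0.06 ± 0.07, 0.536), did not pass.

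**Figure D5:**
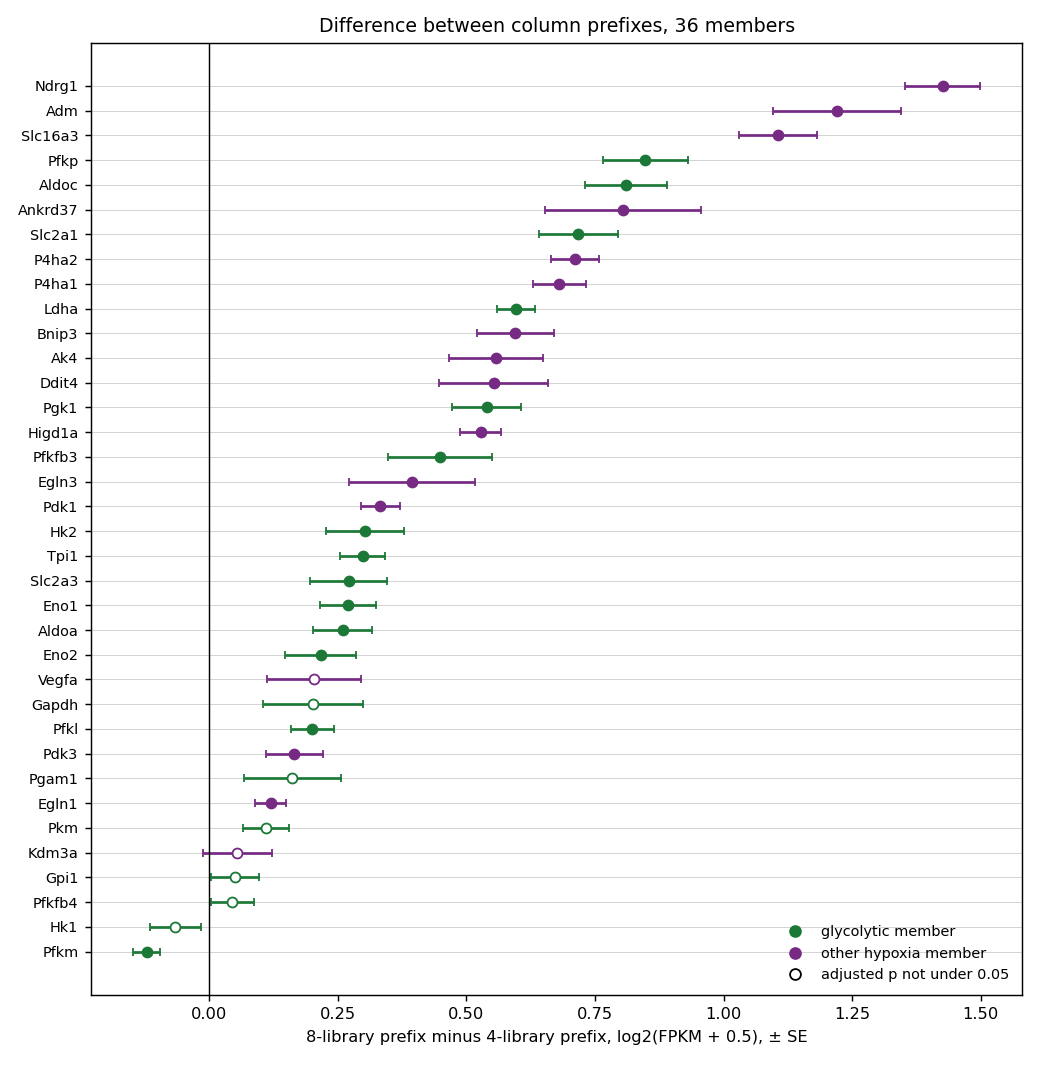
Difference between the 8 libraries of the 8-library prefix and the 4 of the 4-library prefix for the 36 members on the log2(FPKM + 0.5) scale, with SE bars, glycolytic members in green and others in purple. Filled points passed the limma adjusted threshold of 0.05. Ndrg1 at 1.43, Adm at 1.22 and Slc16a3 at 1.11 lie furthest to the right, and Pfkm at -0.12 is the filled point left of 0.

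Other genes of the pathway moved in part with the members. Each count of genes in this paragraph stands beside 20.8% of all genes called higher and 23% called lower between prefixes. Of 26 further hypoxia targets 12 were higher in the 8-library prefix and 0 were lower, among them Fam162a, Loxl2, P4hb and Hmox1. Of 10 HIF system genes 1 was higher (Bhlhe40) and 4 were lower (Arnt2, Egln2, Hif1an and Cited2). Of 21 genes of oxidative metabolism 9 were higher and 1 lower, and of 18 further genes of glycolysis and pyruvate handling 6 were higher and 3 lower. Tissue markers differed at the same time. All 5 bone markers were higher, with a summed level of 711 to 1297 FPKM against 72.3 to 119 FPKM, and all 5 cartilage markers were lower, with 54.1 to 92.4 FPKM against 165 to 207 FPKM. Of 6 oral epithelium markers 5 were higher (638 to 905 against 246 to 383 FPKM), all 5 myeloid markers were higher (32.4 to 38.1 against 21.1 to 23.0 FPKM), and 5 of 9 skeletal muscle markers were lower. Of the 8 palatal mesenchyme markers 5 were lower (Prrx1, Pdgfra, Shox2, Barx1 and Msx1), with a summed level of 543 to 649 FPKM against 695 to 811 FPKM and no overlap. Of 8 erythroid markers tested 4 were lower and 2 higher (summed level 717 to 986 against 1159 to 1520 FPKM), and 3 of 4 Schwann and glial markers were lower. Of 8 stress and immediate early genes tested, 3 were higher, Jun, Junb and Atf3. The part of these cell types in the difference of the members between prefixes was not tested, and the prefix cannot be told apart from the title numbers it holds. Control genotype differed as well, all Pax9+/+ in the 4-library prefix and mostly Pax9+/- in the 8-library prefix.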

How the data were processed

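Per the labels' protocols, RNA from the palatal shelves of 12 embryos was purified on columns and turned into TruSeq libraries after oligo(dT) selection. The deposited table gives FPKM values made by the authors for 19083 genes. The submitters' processing notes name mm10, Novoalign 2.08.03 and DESeq2; not given in the sources used here are the annotation, the counting tool and the strand setting. FPKM were whole multiples of 1 read within 0.001 read for 19082 genes, which gave the depth. Replicates were no copies of each other.

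The members and lists were chosen with earlier results of these data known; 2 listed genes that are no members are not reported here and were left out of the list counts. Symbols and positions came from GENCODE M21, promoters from RefSeq, and copies from blast 2.17.0 at 95% identity. Genes with at least 1 FPKM in 3 libraries were tested on the log2(FPKM + 0.5) scale, which understates changes of low genes, using limma 3.58.1 under R 4.3.3 (1 mean per group, 12 libraries, trend, two-sided, Benjamini-Hochberg over all genes, threshold 0.05). Simulated data were used to check the fit. Given in full are members called without or with the block and the 3 with the smallest p of each genotype comparison; the many called between prefixes are given by range.

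Deviations of the 10 pairs of libraries that share a title number and a group contrast correlated from 0.32 to 0.83, so the number is fitted as a block. These pairs also share a prefix, and pairs of different title numbers do not, so the correlations cannot separate title number from prefix. The pairing comes from the titles and from littermates being named in the design. Alternatives were pseudocounts of 0.1 and 1, no filter or 5 FPKM, median-ratio scaling, the block and a random effect. The consensus correlation of the random effect was 0.50 in the treatment fits and -0.13 in the prefix fit. Further alternatives were a prefix term, the 8-library prefix alone and each library left out. Embryos of day 13.5 named in the protocol were not analysed here.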

Additional observations from a re-analysis of the deposited data

How the results depend on the processing

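Without a block, 0 members passed in the 3 genotype comparisons, the 3 treatment comparisons and the interaction under pseudocounts of 0.1 and 1, without the filter, at 5 FPKM, under median-ratio scaling and with any 1 library left out. With the replicate block by title number, the members called were 0 among untreated embryos, 5 among treated ones and 4 over both. With the prefix as a term they were 2 in treated embryos, 4 over both and 1 for WAY in controls. In the 8-library prefix alone they were 1 (P4ha2) and 2 (Pdk1 and P4ha2). Alternatives of the block fit, chosen after seeing the data, gave 0 to 8 members in treated embryos and 2 to 8 over both with 1 library left out, the 8 without WAY control 3, and 7 and 6 under median-ratio scaling. Between prefixes, 23 to 29 members were higher with 1 library left out and 28 with the random effect. The consensus correlation of that random-effect fit was -0.13. It thus treated libraries of one title number as less alike than independent ones, which tends to narrow the errors between prefixes. Its count of 28 is therefore no stricter than that of the fit without the random effect. No named gene reversed a call. Depth limits Car9 and Adm most. The causes of these changes were not tested.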
